A study of Mustela putorius furo with 7 samples.

Results

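The assembly of the ferret genome used by the study holds long scaffolds and many short pieces that were never placed on them. Open chromatin was examined here on the short pieces, taken as every scaffold whose last region in the deposited matrix ended below base 100000. The rule selected 2238 of 95129 regions, or 2.35%, and 1349 of 1895 scaffolds, or 71.2%. The largest end is that of the last region and not the length of the scaffold, so a longer scaffold without regions near its far end can also be among them.

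Bulk ATAC-seq had been performed on polarized pancreatic ductal epithelia (PDE) of ferrets with 2 genotypes, CFTR KO/KO (CF) with 3 libraries and wild type (WT) with 4. Both genotypes came from newborns aged 1 to 3 days, whose duct cells were carried through 10 passages and then polarized for 14 days at the air-liquid interface (ALI), and roughly 50000 cells of a culture entered the reaction. CFTR, the gene knocked out in CF, encodes the chloride and bicarbonate channel of duct cells, and the labels name no other allele or agent for either group. The labels number donors 1 to 3 in CF and 1 to 4 in WT, while the study's methods give 3 donors of each genotype. A p-value here therefore speaks of libraries only and not of a settled number of donors. Since the files pair no genes with regions, neither the ductal identity nor the knockout could be checked from them.

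In ATAC-seq a transposase cuts and tags DNA that is not wrapped in compact chromatin, so read density follows accessibility. It follows the number of copies of a sequence as well, because every copy offers a target and reads of all copies can align to one assembled copy. Repeated sequence is a common reason why a piece of a draft assembly cannot be placed, and short unplaced pieces are therefore often repetitive. The copy number of these scaffolds was not tested.

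The short scaffolds carried few regions each. One region was found on 961 of them, and the most regions on any was 25. Their names fell into 840 that start with AEYP, with 971 regions, and 509 that start with GL, with 1267 regions, whereas none of the 546 other scaffolds had an AEYP name. The largest end had a median of base 1511 and ran from base 216 to base 98616. Regions had a median width of 587 bp against 557 bp elsewhere, covered a median of 48.6% of the stretch up to the largest end, and started at base 1 in 106 cases against 18 on all other scaffolds. At the limit itself, the scaffolds just inside were GL897388, GL897423 and GL897416, with largest ends at 98180, 98529 and 98616 and mean shares of reads of 0.00012%, 0.00028% and 0.00184%. Those just outside were GL897485, GL897469 and GL897460, which ended at 102346, 102890 and 103862 and held 0.00021%, 0.00085% and 0.00807%.

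These 2.35% of regions held far more than that fraction of the reads. Reads in all regions came to between 8469877 and 11047724 per CF library and between 3226534 and 8172005 per WT library, so the CF libraries were the deeper ones throughout. Short scaffolds took 19.7%, 14.9% and 16.3% of the reads in CF1, CF2 and CF3. They took 23.1%, 20.5%, 33.0% and 30.6% in WT1, WT2, WT3 and WT4. Every WT library lay above every CF library, at 26.8% ± 5.93 (SD, n = 4) against 17.0% ± 2.51 (SD, n = 3), and WT3 and WT4 stood well above WT1 and WT2. These shares are a description without a test, and the authors' scaling, a single factor per library, leaves them unchanged. Depth also separated the genotypes, and its part in the result was not tested.

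The separation rested on scaffold GL897838. Its 5 regions alone took 8.97%, 7.15% and 8.11% of the reads in CF1, CF2 and CF3. They took 12.95%, 13.98%, 22.5% and 22.6% in WT1 to WT4, in order, which gave 18.0% ± 5.27 (SD, n = 4) against 8.08% ± 0.909 (SD, n = 3) with no overlap. GL897838 was the most read of all 1895 scaffolds and made up 45.4% to 49.7% of the short-scaffold reads in CF and 56.0% to 73.9% in WT. With it left out of both the short scaffolds and the total, the shares became 11.8%, 8.30% and 8.93% in CF. The WT shares then were 11.7%, 7.63%, 13.5% and 10.3%. The genotypes now overlapped, at 9.68% ± 1.89 and 10.8% ± 2.49, with WT2 the lowest library of all and WT3 the highest.

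**Figure D1:**
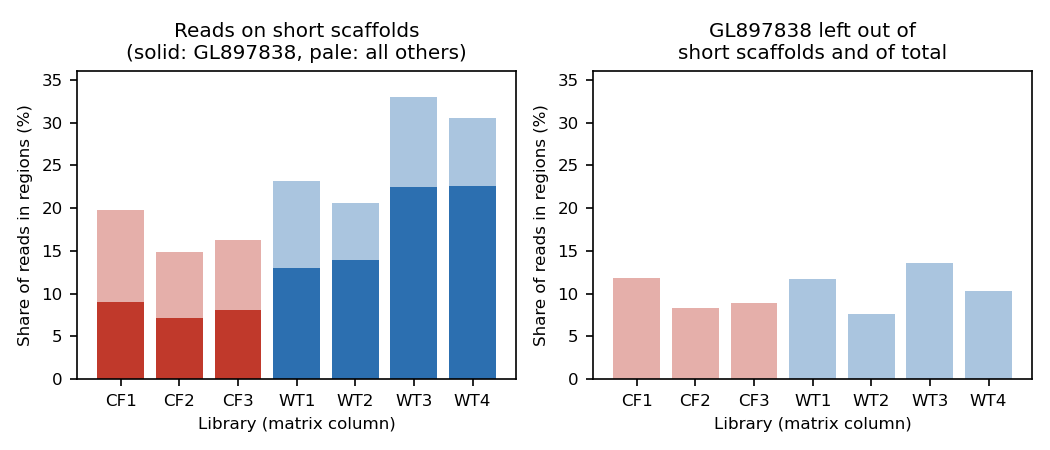
Share of reads in regions (%, vertical axis) that lay on short scaffolds in each library (horizontal axis), with GL897838 as the solid and all other short scaffolds as the pale part of a bar on the left, and with GL897838 left out of both parts of the ratio on the right. The 4 WT bars on the left reach 20.5% to 33.0% and the 3 CF bars 14.9% to 19.7%, while on the right the ranges are 7.63% to 13.5% and 8.30% to 11.8%.

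Reads were concentrated on a handful of pieces. The 10 short scaffolds with the largest mean share over the 7 libraries held 18.1% of all reads, which was 80.3% of the short-scaffold reads, and the other 1339 together held 4.45%. Of the 10 regions with most reads in the whole matrix 9 lay on short scaffolds, as did 32 of the top 50 and 60 of the top 100. Per length of region the contrast was wider at the top than in the middle. The 20 scaffolds with most reads per kb of region were all short, and GL897838 reached 176482 reads per kb, but the median short scaffold had 40.5 reads per kb against 84.1 on other scaffolds. Summed per scaffold, the typical short scaffold was thus read less densely than the typical other scaffold, and a few were read far more densely. This does not hold for single regions, whose median was 30.4 reads on short scaffolds against 26.9 on others.

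After GL897838, with a mean share of 13.8%, came AEYP01112718 with 1.08%, AEYP01115466 with 0.733%, AEYP01114413 with 0.568% and AEYP01116162 with 0.4999%. AEYP01117170, AEYP01116558, GL897733, AEYP01115527 and AEYP01116969 followed with 0.397%, 0.333%, 0.318%, 0.268% and 0.190%. In their profile across libraries these scaffolds formed 2 sets and 2 single cases, and the sets were noticed in the values and are given without a test.

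The first set was GL897838 with AEYP01112718, whose one region spans bases 1 to 1846. The share of AEYP01112718 was 0.709%, 0.569% and 0.655% in CF1, CF2 and CF3, and 1.02%, 1.13%, 1.75% and 1.76% in WT1 to WT4. Every CF library lay below every WT library, in the order seen on GL897838. Expressed against GL897838, AEYP01112718 kept 7.77% to 8.08% of its reads in all 7 libraries, and the log2 ratio had an SD of 0.02.

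The 5 regions of GL897838 held nearly constant parts of its reads. GL897838:4343-5697 had 31.0% to 34.5%, GL897838:7097-8043 25.0% to 28.9%, GL897838:11616-12390 23.7% to 25.3%, GL897838:10020-11288 10.7% to 11.6% and GL897838:3190-3651 4.41% to 4.57%. The smallest region was the steadiest, with an SD of the log2 ratio of 0.02, and the largest SD among the 5 was 0.07. Among the 183 regions of the matrix with a mean of at least 1000 reads, of which 90 lay on short scaffolds, a single region outside the 2 scaffolds kept as even a ratio. This was GL896904:24071810-24072324, inside a long scaffold, with 12.4% to 13.8% of the GL897838 reads and an SD of the log2 ratio of 0.05. It took 1.11%, 0.913% and 1.06% of all reads in CF1 to CF3 and 1.65%, 1.80%, 3.10% and 2.87% in WT1 to WT4. Its next neighbour in that order, GL897480:32082-33100, also on a scaffold outside the rule, had an SD of 0.14. The 7 libraries share depth and scaling across all these regions, so the ratios describe likeness of profile only.

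The second set held 6 AEYP scaffolds with 1 region each, AEYP01115466, AEYP01114413, AEYP01116162, AEYP01117170, AEYP01116558 and AEYP01115527. AEYP01115466, which is the most read of them, took 0.964%, 0.661% and 0.718% in CF1 to CF3 and 0.870%, 0.482%, 0.847% and 0.587% in WT1 to WT4. CF1, WT1 and WT3 were high and WT2 was lowest, and the genotypes overlapped. AEYP01114413 held 75.9% to 79.2% of the reads of AEYP01115466 across the 7 libraries, AEYP01116162 67.2% to 69.4%, AEYP01117170 50.3% to 55.8%, AEYP01116558 44.8% to 46.4% and AEYP01115527 35.9% to 37.9%. The SD of their log2 ratio ran from 0.02 to 0.06, against 0.81 for the ratio of GL897838 to the same scaffold. Across libraries the 2 sets therefore moved separately.

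GL897733, with 8 regions up to base 13114, followed the second set within each genotype but at different levels. It held 48.5%, 47.8% and 45.9% of the reads of AEYP01115466 in CF1 to CF3 and 41.0%, 40.6%, 38.9% and 39.3% in WT1 to WT4, and the genotypes did not overlap. AEYP01116969 kept an even ratio to neither set, with 18.7%, 20.8% and 15.4% of AEYP01115466 in CF and 19.9%, 50.1%, 25.5% and 46.0% in WT. It was nearer to GL897838, of whose reads it held 0.960% to 2.01%, with an SD of the log2 ratio of 0.39 against 0.66 to AEYP01115466. The library order of the second set recurred in most well-read short-scaffold regions. It was not particular to them. Many regions on other scaffolds with as many reads had it too, GL897252:421748-422185 among them, whereas others such as GL896901:19500061-19501708 did not. Neither the order nor the overlap was counted over these 93 regions. The counts that follow therefore do not set short scaffolds apart. Of the 84 short-scaffold regions with a mean of at least 1000 reads outside GL897838 and AEYP01112718, CF1 had the highest share of the CF libraries in 79, WT1 and WT3 both lay above WT2 and WT4 in 78, and the genotypes overlapped in 77.

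**Figure D2:**
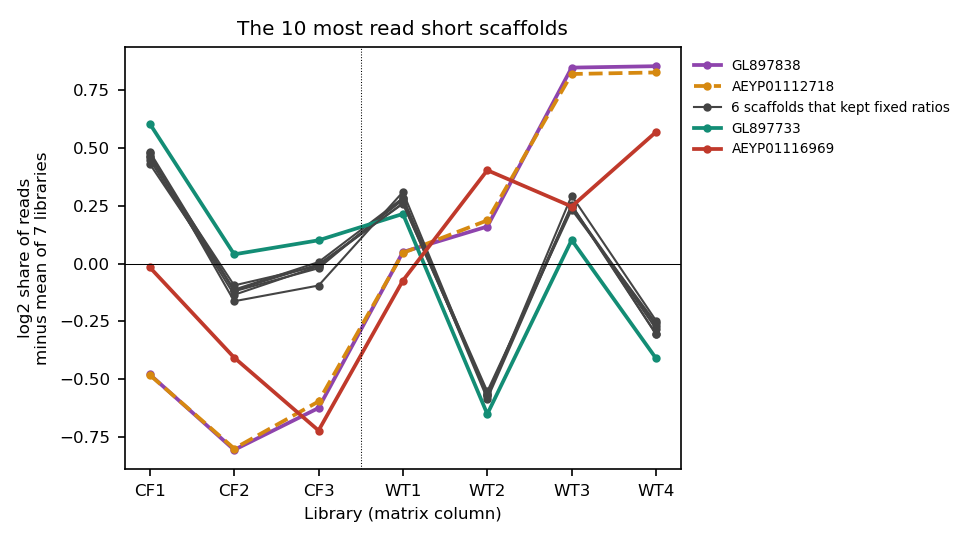
Share of reads of the 10 most read short scaffolds in each of the 7 libraries, relative to the mean share of the scaffold and on a log2 axis, with a line per scaffold. GL897838 and AEYP01112718 run together and are lower in CF, 6 AEYP scaffolds run together with peaks in CF1, WT1 and WT3, and AEYP01116969 keeps an even ratio to neither, with a smaller spread to GL897838.

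To evaluate which scaffolds differed between genotypes, reads were summed per scaffold, expressed as RPM (reads scaled to an equal total per library) and tested over all 1895 scaffolds with limma (log2 change past 1 at an adjusted p under 0.05). In CF, 92 short scaffolds were higher and 35 were lower, or 6.82% and 2.59%, beside 5.49% and 1.95% of all scaffolds, most of which are short. Of the 546 other scaffolds 2.20% were higher and 0.366% lower. The difference between short and other scaffolds was not tested. GL897838 takes a larger part of the total in WT, which lowers the RPM of every other scaffold there. The counts moved with the total used, and so did the adjusted p. Without GL897838 in the total, the change of GL897805 went from 2.925 to 2.80 and its limma adjusted p from 3.53e-06 to 0.00164. What moved the counts was not tested. With GL897838 left out of the totals 31 short scaffolds were higher and 34 lower, or 2.3% and 2.52%. That was beside 1.74% and 1.9% of all scaffolds, and 0.366% and 0.366% of the other scaffolds. With the authors' scaling 19 short scaffolds were higher and 41 lower, or 1.41% and 3.04%. That was beside 1.0% and 2.32% of all scaffolds, and 0.0% and 0.549% of the other scaffolds. The median log2 change of the short scaffolds moved with the scaling from 0.43 to 0.29 and 0.11, so the excess of higher scaffolds under the library total is not a stable direction. Under all 3 scalings, 19 short scaffolds were higher and 31 lower, beside 1.0% and 1.74% of all scaffolds. Single libraries weighed on the counts as well, with 25 higher short scaffolds without CF3, beside 1.48% of all, and 181 without WT1, beside 10.8% of all.

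**Figure D3:**
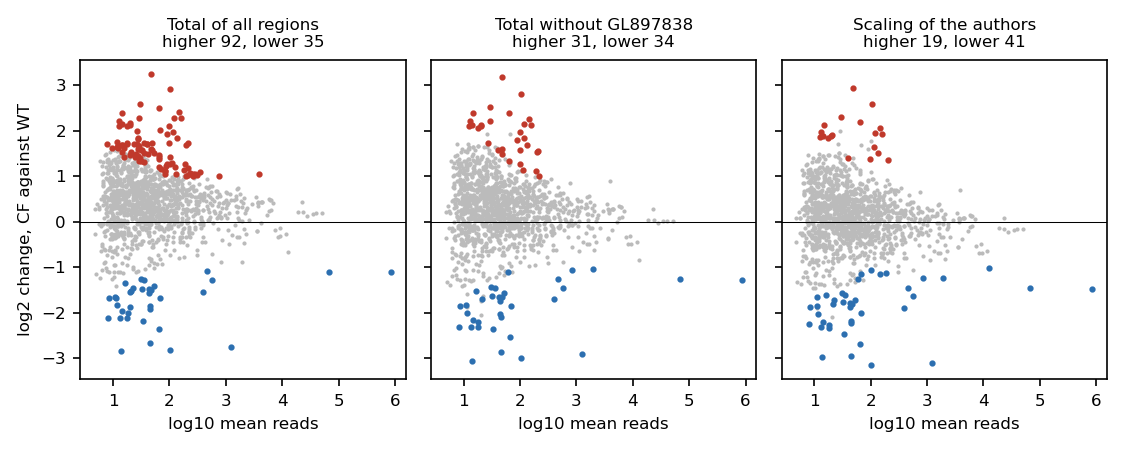
Log2 change of each of the 1349 short scaffolds, CF against WT (vertical axis), against log10 of its mean reads per library (horizontal axis), under 3 scalings, with scaffolds called higher in red, called lower in blue and others in grey. The calls are 92 higher and 35 lower with the total of all regions, 31 and 34 with GL897838 left out of the total, and 19 and 41 with the authors' scaling, and the 2 lower points farthest to the right are AEYP01112718 and GL897838.

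Among the scaffolds called lower were the 2 of the first set. GL897838 changed by −1.12 ± 0.13 on the log2 scale (SE, limma, adjusted p = 3.25e-07) and AEYP01112718 by −1.10 ± 0.14 (adjusted p = 2.80e-06). With the authors' scaling the changes were −1.47 and −1.46, and both were called there as well. In limma each SE is set partly by a trend of variance with read level over all scaffolds. The SE and adjusted p of these 2, the most read short scaffolds, are therefore not set by their own libraries alone. On GL897838 the WT shares ran from 12.95% to 22.6%. GL898092, with 3 regions up to base 5185, had 72.6, 42.6 and 42.1 RPM in CF1 to CF3 and 477, 254, 422 and 271 in WT1 to WT4. All CF libraries lay far below all WT libraries, and the change was −2.75 ± 0.23 (limma, adjusted p = 3.50e-10). GL897665, AEYP01114780 and AEYP01107703, with 1 region each, changed by −2.82, −2.67 and −2.36. On AEYP01114780 the 3 CF libraries held 12, 7 and 31 reads and the 4 WT libraries 56, 105, 42 and 65, so few reads stand behind it.

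The 6 named scaffolds that were higher in CF held no more than 391 reads in any library. The same was true of GL897665, AEYP01114780 and AEYP01107703 among the lower. GL897805 had 150, 243 and 278 reads in CF1 to CF3 and 10, 15, 8 and 26 in WT1 to WT4, or 17.7, 28.4 and 25.2 against 1.97, 1.84, 2.48 and 5.13 RPM. The genotypes stood far apart, and the change was 2.92 ± 0.39 (SE, limma, adjusted p = 3.53e-06). GL898382 gave 3.24 ± 0.47, with 98 to 117 reads in CF and 12, 3, 2 and 2 in WT, AEYP01112264 gave 2.41 ± 0.34, AEYP01112799 2.29 ± 0.34 and AEYP01109612 2.51 ± 0.41. GL897580 is the longest of the 6, with 4 regions up to base 46631, of which 3 were called on their own. It held 30.7, 36.1 and 34.6 RPM in CF and 10.6, 7.10, 3.10 and 7.70 in WT, for a change of 2.28 ± 0.35. The 12 named scaffolds were chosen by adjusted p in these same libraries, so the alternative fits give no separate support. All 12 had the same direction in all 14 alternative fits, each time with an adjusted p under 0.05. Of them, 10 also stayed past a log2 change of 1 in each. The exceptions were GL897838 and AEYP01112718, whose changes were −0.99 and −0.98 without WT3, the same without WT4 and the same with the replicate number as a block.

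The same question was asked of single regions, with limma on log2(signal + 1) over all 95129 regions and the same thresholds. The signal is the authors' normalized read count. On short scaffolds 42 regions were more open in CF and 76 less open, here termed opened and closed. That was 1.88% and 3.40% of the 2238 regions, beside 4.31% and 6.26% of all regions tested. Regions in which every CF library lay above every WT library numbered 180, or 8.04%, beside 11.5% of all, and those in which every CF library lay below numbered 145, or 6.48%, beside 12.8%. Both directions were thus rarer on short scaffolds than in the matrix as a whole. The difference was not tested. With library size as the only scaling the counts were 124 opened and 50 closed, or 5.54% and 2.23%, beside 8.12% and 3.62% of all regions, and the median change of all regions rose from 0.03 to 0.38. Without CF1 13 regions opened, or 0.581% beside 1.55% of all, and without WT3 91 did, or 4.07% beside 5.35%.

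The middle of the short-scaffold regions was shifted little. Their median log2 change was 0.14 against 0.03 on other scaffolds, with quartiles at −0.30 and 0.60 against −0.49 and 0.62, and the SD of the change across regions was 0.84 against 1.03. The median SD of log2 signal between libraries was 0.69 within WT and 0.37 within CF against 0.66 and 0.35. Read depth was alike too, with a median of 30.4 reads per region against 26.9. In the class of 10 to 100 mean reads, which held 66.7% of the short-scaffold regions, 2.14% opened and 3.75% closed, beside 5.15% and 7.33% of the other regions at that level. Between 100 and 1000 reads the shares were 1.75% and 3.49% beside 2.46% and 3.67%, and the median SD within WT was larger on short scaffolds, at 0.53 against 0.31. In the highest class, of 1000 reads or more, 0 of 90 opened and 4 closed by limma, with 1 higher and 26 lower at an unadjusted p under 0.05. In the same class edgeR called 0 and 7 and DESeq2 0 and 9, and limma called 1 and 3 of the 93 regions on other scaffolds.

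The calls were spread over many pieces. The 42 opened regions lay on 37 scaffolds and the 76 closed regions on 67, and no scaffold held both kinds. On 12 scaffolds 2 or more regions were called, and on each of the 12 they were called in one direction. The opened regions had a median log2 change of 2.21 with a range from 1.06 to 3.36, and the closed ones −1.95 with a range from −4.27 to −1.03. AEYP scaffolds held 20 opened and 39 closed regions, or 2.06% and 4.02% of 971. GL scaffolds held 22 and 37, or 1.74% and 2.92% of 1267, beside 4.31% and 6.26% of all regions. With edgeR on the reads, 42 of the 42 opened and 75 of the 76 closed regions were called too.

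Calls did not follow the length of the scaffold in one direction. On scaffolds that ended below base 1500, with 701 regions, 1.28% opened and 3.99% closed. In the next class, up to base 5000, the shares were 2.90% and 3.28% of 518 regions. They were 2.08% and 3.41% of 528 regions up to base 20000, and 1.43% and 2.65% of 491 regions up to base 100000. With GL897838 left out, the first class carried the most reads, at 4.86% ± 1.02 (SD, n = 3) of the reads in CF and 4.89% ± 1.20 (SD, n = 4) in WT, and the last the fewest, at 0.720% ± 0.122 and 0.643% ± 0.159. The class from base 1500 to 5000 held 1.78% ± 0.251 in CF and 2.80% ± 0.666 in WT, of which AEYP01112718 alone was 0.702% ± 0.0839 and 1.75% ± 0.593. The rest of that class held 1.08% ± 0.172 and 1.05% ± 0.256, with overlap.

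**Figure D4:**
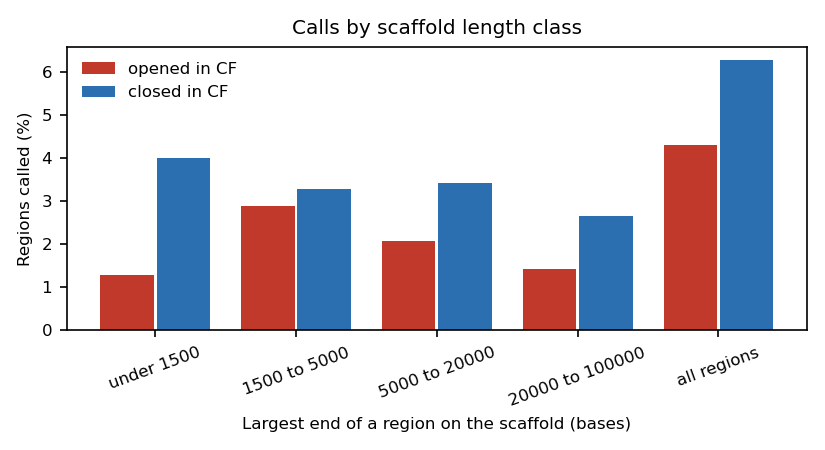
Percentage of regions opened (red) and closed (blue) in CF by limma (vertical axis), for 4 classes of the largest region end on the scaffold and for all 95129 regions (horizontal axis). Bars of the 4 short classes lie between 1.28% and 2.90% for opened and between 2.65% and 3.99% for closed regions, below the 4.31% and 6.26% of all regions.

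Among the closed regions with the smallest adjusted p, the first and second were neighbours on GL898092. GL898092:1428-2400 had a signal of 210, 151 and 127 in CF1 to CF3 and 1708, 888, 1925 and 1091 in WT1 to WT4. GL898092:1-1037 had 209, 78.3 and 90.5 in CF and 1795, 927, 2184 and 1148 in WT. In both, the highest CF library lay far below the lowest WT library, and the changes were −3.06 ± 0.24 (SE, limma, adjusted p = 1.27e-07) and −3.64 ± 0.30 (adjusted p = 1.79e-07). The third region of that scaffold, GL898092:4804-5185, overlapped between genotypes, at 49.7 ± 12.0 and 53.8 ± 23.2, with a log2 change of −0.02. The drop in signal was thus measured toward the start of this piece and did not pass at the far end.

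A like split was seen on GL898500. GL898500:54-477 had a signal of 50.2, 25.4 and 23.0 in CF and 426, 245, 412 and 268 in WT, and changed by −3.37 ± 0.29 (SE, limma, adjusted p = 3.41e-07). Its neighbours GL898500:3098-3614 and GL898500:3791-4080 had changes of 0.86 and 0.67, which did not pass (adjusted p = 0.0577 and 0.130). On GL897878 the closed region GL897878:5080-6172, with a signal of 106.5 ± 28.0 in CF and 520 ± 173 in WT and a change of −2.25, lay among 4 others. Of those, GL897878:1704-2085 and GL897878:6891-7133 were also closed, by −2.31 and −2.55, and the regions at both ends, GL897878:22-295 and GL897878:7969-8160, had changes of 0.10 and 0.68 that did not pass.

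The remaining closed regions were single on their scaffolds. GL897665:20187-21144 had a signal of 31.4, 14.2 and 26.4 in CF and 207, 233, 311 and 193 in WT, a change of −3.29 ± 0.30 (SE, limma, adjusted p = 5.08e-07). AEYP01107703:54347-55034 changed by −2.86 and AEYP01114780:143-1097 by −3.28, both with fewer than 50 reads in every CF library. AEYP01112004:10-2779, the widest of the 8, had 231, 316 and 287 in CF and 682, 782, 870 and 719 in WT. It was a smaller step, of −1.46 ± 0.18 (adjusted p = 2.78e-05), between groups whose members lay close together.

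The opened regions had unlike levels in WT. The median short-scaffold region held 24, 25, 13 and 15 reads in WT1 to WT4. AEYP01113727:1-272 lay above these, with 38, 43, 20 and 26 reads, and GL897805:8231-8958 below them, with 3, 10, 3 and 7. Of the opened regions, AEYP01112799:50-1712 had the smallest adjusted p. Its signal was 207, 168 and 130.4 in CF1 to CF3 and 45.5, 43.5, 46.1 and 28.5 in WT1 to WT4. WT4 was the lowest library, and the change was 2.02 ± 0.29 (SE, limma, adjusted p = 0.000126). GL897805:8231-8958 had 67.4, 108 and 104 in CF and 4.403, 8.88, 9.23 and 11.7 in WT, with 3 to 10 reads in each WT library, and changed by 3.34 ± 0.48. Its neighbour GL897805:3581-4260 opened too, by 2.12 ± 0.55 (adjusted p = 0.0144). AEYP01112264:31-2111 had 253, 147 and 219.7 in CF and 42.6, 32.0, 86.1 and 35.2 in WT, a change of 2.13 ± 0.32, with WT3 the highest of its group.

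AEYP01113727:1-272 and GL897744:7325-7687 had tighter groups. The first had a signal of 136, 186.5 and 179.8 in CF and 55.8, 38.2, 61.5 and 43.6 in WT, a change of 1.74 ± 0.27 (SE, limma, adjusted p = 0.000295), and the second changed by 1.69 ± 0.27. The other region on the same piece, AEYP01113727:966-1347, had 9.23 ± 6.37 in CF and 12.1 ± 9.11 in WT, with overlap between genotypes. GL897626:11216-12267 changed by 1.44 ± 0.29 and AEYP01109612:9021-9635 by 2.99 ± 0.56. On GL898382 both regions opened, GL898382:159-821 by 3.17 ± 0.66 and GL898382:3429-4307 by 3.36 ± 0.72. The first had 49, 39 and 48 reads in CF and 3, 2, 1 and 1 in WT, where 1 read is the lowest value any library holds and can also stand for no read. Each of the 16 named opened and closed regions kept its direction and its call in all 15 alternative fits.

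**Figure D5:**
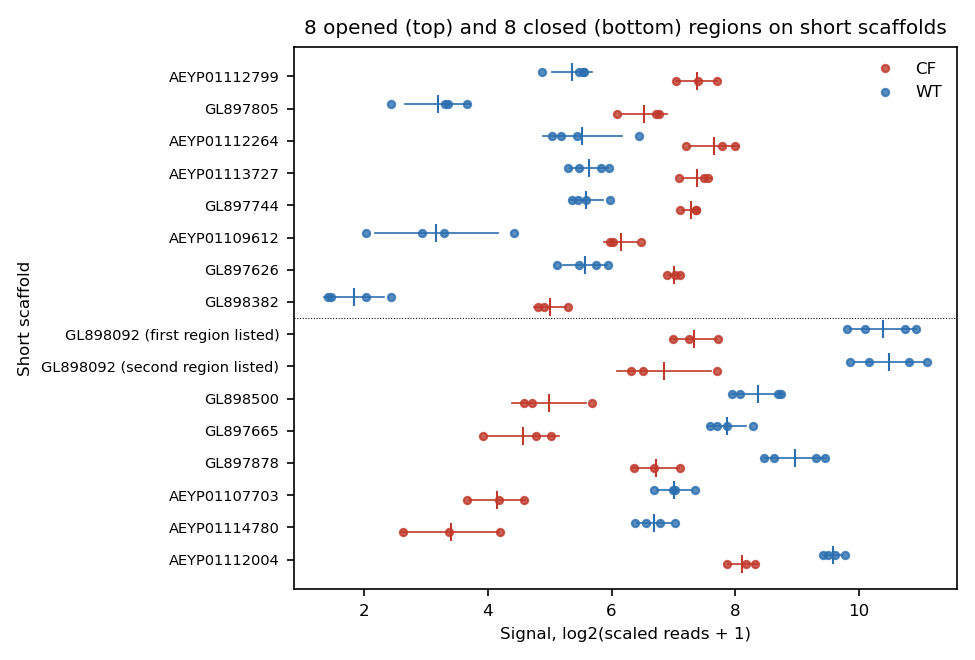
Signal of the 8 opened and 8 closed regions on short scaffolds with the smallest adjusted p among those whose genotypes do not overlap. The axis is log2, with a point per library, CF in red (n = 3) and WT in blue (n = 4). By that choice all CF points lie on one side of all WT points in each of the 16 regions. The first opened region, AEYP01112799:50-1712, runs from 130.4 to 207 in CF and from 28.5 to 46.1 in WT.

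The 5 regions of GL897838 were tested singly with the authors' scaling. Reads in GL897838:3190-3651 made up 0.397%, 0.319% and 0.371% of all reads in CF1 to CF3 and 0.583%, 0.632%, 1.02% and 0.997% in WT1 to WT4. All 5 regions had every CF share below every WT share. Their log2 changes were close, at −1.47 ± 0.37, −1.56 ± 0.66, −1.39 ± 0.61, −1.41 ± 0.47 and −1.48 ± 0.60 in order of position (SE, limma). The first alone passed, with an adjusted p of 0.0117 that became 0.111 to 0.158 with any one CF library left out, and the others had adjusted p of 0.134, 0.153, 0.0537 and 0.117. In limma the SE is set partly by a trend of variance with signal level, and the first region has the lowest signal of the 5. The 5 held nearly constant parts of the scaffold's reads, so a pass or a miss does not mark a difference between them. The region GL896904:24071810-24072324 that kept pace with them changed by −1.502 ± 0.49 (adjusted p = 0.0514). The scaffold as a whole had an adjusted p of 0.0133 on that scaling, and with library size as the only scaling all 5 regions passed, with adjusted p of 0.00273 to 0.0201. By edgeR on the reads the 4 that missed had adjusted p of 0.000382, 0.000702, 0.000481 and 0.000509.

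The 5 short scaffolds with most regions had few calls. GL897504 had 25 regions and GL897499 had 18, with median log2 changes of −0.13 and −0.20, and GL897531 and GL897631 had 16 each, with 0.24 and 0.08. On these 4 scaffolds 0 of 75 regions were called by limma, edgeR or DESeq2, and at an unadjusted p under 0.05 in limma 0 were higher and 6 lower. By limma 1.88% of all short-scaffold regions opened and 3.40% closed, beside 4.31% and 6.26% of all regions. Whether 0 of 75 departs from these shares was not tested. On GL897486, with 18 regions and a median of 0.62, 1 region opened, GL897486:81192-81682, by 2.59 ± 0.72 (SE, limma, adjusted p = 0.0213), with 36, 29 and 26 reads in CF and 5, 1, 1 and 1 in WT. Summed over the scaffold GL897486 differed by 0.94 (adjusted p = 0.0248), short of the fold threshold.

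The peak lists that the authors called per library give a second view of the same scaffolds. Each CF list held 2117 ± 162 peaks on short scaffolds (SD, n = 3) and each WT list 1481 ± 157 (SD, n = 4), without overlap. As a share of the list this was 2.27% ± 0.208 and 2.19% ± 0.362, and the groups overlapped, and the whole lists held 93943 ± 13270 and 69633 ± 17225 peaks, with overlap. A peak was present on 1137 ± 43.3 of the short scaffolds in CF and 914 ± 92.9 in WT. Fold enrichment over the local background had a median per list of 5.21 ± 0.111 in CF and 5.78 ± 0.113 in WT on short scaffolds, and 4.84 ± 0.145 and 5.65 ± 0.0812 on others. CF was lower in both classes without overlap.

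On GL897838 the peak caller gave another picture than the reads. It had 5 peaks in each of the 7 lists, and the highest fold enrichment on it was 4.13 to 4.68, below the median of short-scaffold peaks in every list. Peak heights on it overlapped between genotypes. At GL897838:4343-5697 the fold enrichment was 4.41, 4.52 and 4.42 in the CF lists and 4.14, 4.55, 4.08 and 4.56 in the WT lists, which overlapped. AEYP01112718 had 10.3 to 10.8 in CF and 9.64 to 10.7 in WT. MACS2 measures fold enrichment against the reads around a peak, so it is not a measure of the number of reads.

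For the named regions both readouts could be set side by side. GL898500:54-477 had peaks in all lists, with fold enrichments of 5.54, 6.66 and 8.57 in CF and 18.7, 19.9, 20.8 and 22.6 in WT. GL897805:8231-8958 had a peak in 3 CF lists, at 10.5, 9.18 and 7.66, and in 0 WT lists, as did GL898382:159-821. By contrast GL898092:1428-2400 had 6.09, 5.25 and 5.33 in CF and 6.07, 6.43, 5.90 and 5.83 in WT, which overlapped, whereas its signal was separated widely. Fold enrichment also overlapped at the closed AEYP01112004:10-2779, with 6.30, 6.53 and 6.065 in CF and 4.95, 6.71, 5.15 and 5.44 in WT. It overlapped at the opened GL897626:11216-12267 and AEYP01112799:50-1712 as well. Other named regions, such as GL897665:20187-21144, were separated in both readouts. Over all short-scaffold regions a peak was present in all 7 lists for 729, or 32.6%, against 26.3% of other regions. A peak in every CF and no WT list was found for 101, or 4.51%, against 4.48%, and in every WT and no CF list for 9, or 0.402%, against 1.06%.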

How the data were processed

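The authors used Trimmomatic for trimming and Bowtie 2 for alignment to MusPutFur1.0, called peaks per library with MACS2 and built regions with DiffBind. The filtering of reads that match several places, which bears on repeated sequence, is not given in the sources used here, nor is the shift of read ends. The deposited matrix holds a normalized signal per region. Each value was a whole number of reads times one factor per library, within 0.001 reads for 100% of values, so reads were recovered as value over column minimum. The deposited peak lists hold, per peak, its score, the ratio of its reads to the local background (fold enrichment), and −log10 of its p-value and of its q-value. Matrix starts lay 1 base before a peak start for 100% of regions, and positions are counted from 1. A region holds a peak where they overlap by at least 1 bp.

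Because values were normalized, regions were tested in R 4.3.3 with limma 3.58.1, with its mean trend, on log2(signal + 1), and scaffold sums on log2(RPM + 0.5), RPM being reads scaled to an equal library total, genotype being the only term. Calls required a Benjamini-Hochberg adjusted p under 0.05 over all regions or scaffolds and a log2 change past 1. These fold changes understate those of features with few reads. Alternatives were edgeR 4.0.16 and DESeq2 1.42.0 on recovered reads and other scalings, pseudocounts, filters, thresholds, length limits, leaving out each library, and a replicate block. Python 3.11.15, pandas 2.3.3, numpy 2.4.6 and matplotlib 3.10.9 were used.

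Named are the 10 short scaffolds with the largest mean share, the 5 regions of GL897838, the 8 opened and 8 closed regions with the smallest adjusted p whose genotypes do not overlap, up to 6 scaffolds called per direction and the 5 with most regions. Members and lists were chosen with earlier results of these data known. Other regions and ratios named were picked after their values were seen, as were classes of length and level.

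Deviations from the group means of same-numbered CF and WT libraries correlated across regions at 0.07, 0.09 and −0.02, so the numbers did not pair them. The best-matching peak list had the same genotype for 7 of 7 matrix columns but the same name for 1, so libraries are named by matrix column or by list. No sequence or annotation of MusPutFur1.0 was used here.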

Additional observations from a re-analysis of the deposited data

Results flagged for a closer look

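In 2 of the 48 results examined for a stray value among the 4 WT libraries, one library stood apart from the other three by Dixon's criterion, which chance meets in about 1 in 20. For the opened region AEYP01112799:50-1712 the log2 signal was 4.88 in WT4 against 5.48, 5.54 and 5.56 in the others. For the lower scaffold AEYP01114780 the log2(RPM + 0.5) was 3.53 in WT1 against 3.74, 3.74 and 3.76. Both lie on the same side of the CF libraries as the other WT libraries, which for the region follows from how it was chosen.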

How the results depend on the processing

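The 42 opened short-scaffold regions became 124 with library size alone and 70 with library size without GL897838, and 13 to 91 with a library left out (13 without CF1, 18 without CF2 or CF3, 65 without WT1, 91 without WT3). The 76 closed regions became 50 with library size alone and 36 at a log2 change past 2, a stricter rule by construction, and 51 to 90 with a library left out. The 92 higher scaffolds became 32 with edgeR, 57 with a mean of at least 30 reads, 19 with the scaled signal and 31 with GL897838 left out of the total, and 25 to 181 with a library left out (28, 47 and 25 without CF1, CF2 and CF3, 181 without WT1, 47 without WT4). The 35 lower scaffolds became 54 with edgeR and 20 with at least 30 reads, and 21 to 36 with a library left out (21, 22 and 22 without CF1, CF2 and CF3). Fewer scaffolds were tested with the read minimum, and fewer libraries when one was left out, and beyond this the cause was not tested. Without GL897838 the share of reads was 9.68% in CF and 10.8% in WT, in place of 17.0% and 26.8%. Other length limits gave 16.7% and 17.3% in CF and 26.6% and 27.1% in WT. The numbers did not pair the libraries, and a replicate block on the 6 libraries numbered 1 to 3 gave 47 opened and 84 closed regions and 107 higher and 41 lower scaffolds. The 16 named opened and closed regions and the 12 named scaffolds were chosen by adjusted p in these same libraries, so what they kept is no separate support. For the 16 regions 240 of 240 alternative values kept direction and threshold, and for the 12 scaffolds 162 of 168. The other 6 kept an adjusted p under 0.05 but fell just short of the fold threshold, GL897838 at −0.99 and AEYP01112718 at −0.98, each without WT3, without WT4 and with the replicate block. For the 5 regions of GL897838, 49 of 75 did so, 22 passed where the reported test had missed, and 4 missed where it had passed, all for GL897838:3190-3651 (adjusted p 0.166 with the replicate block and 0.111 to 0.158 without one CF library), and 0 reversed. The shallowest library held 3226534 reads, and 12.2% of its short-scaffold regions stood at 1 read, where a drop cannot be measured.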
